A study of Mus musculus with 18 samples.

Results

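The E-box hexamer CACGTG has a CpG at its centre and reads the same on both strands. Of the 65530 8-mers with a deposited binding score, 48 held it, and they were picked by their letters alone, with no measured value. The core of 6 bases sat at the right, in the middle or at the left of the 8-mer, with 16 members for each placement. Among the 48, 4 were their own reverse complement and the others formed 22 reverse-complement pairs, so that there were 26 distinct double-stranded sites. All 48 were measured and tested, among 65121 tested 8-mers.

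An E-box is the recognition sequence of basic helix-loop-helix proteins such as MYC, MAX and USF, and the CpG-centred form is their best-known site. The bZIP (basic leucine zipper) proteins CREB1 and ATF1 instead recognise the cyclic AMP response element, or CRE, in which the half-site TGACG is read on both strands around a central ACGT. JUND, a member of the AP-1 family, binds related sites. The E-box core shares the central ACGT with the CRE and differs from it in the bases to either side. Methyl groups on the cytosine of a CpG are a common DNA mark in mammals, and 5-hydroxymethylcytosine is made from 5-methylcytosine by the TET enzymes.

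Binding was measured on protein binding microarrays, on which a tagged protein is allowed to bind double-stranded DNA probes and is then read by fluorescence. The mouse proteins CREB1, ATF1 and JUND were represented by their DNA-binding domains fused to glutathione S-transferase and made in a cell-free expression system, so no cell or chromatin was present. There were 9 groups of 2 arrays, in which each of the 3 proteins met DNA made with 5-methylcytosine (5mC), 5-hydroxymethylcytosine (5hmC) or unmodified cytosine (C). All groups shared the same probes and differed in the base used to copy them, so that with 5mC or 5hmC every C of the synthesized strand was modified and the printed strand stayed unmodified. Each member with its central CpG was therefore hemi-modified, and so were any cytosines of the flanks on that strand. Whether a group's 2 arrays used protein from separate preparations is not stated in the labels, and the p-values measure only the variation from array to array, which can be technical.

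The members the results turn on are written as they read on the synthesized strand, 5′ to 3′, with the E-box core in capitals and the flanking bases in lower case. The first 3 were the highest by mean on unmodified DNA with CREB1, the next 2 were among the highest with ATF1 or JUND, and the 4 after those are the members that are their own reverse complement.
core followed by ac: CACGTGac
core preceded by gt: gtCACGTG
core preceded by ga: gaCACGTG
core preceded by ta: taCACGTG
core preceded by at: atCACGTG
core between a and t: aCACGTGt
core between t and a: tCACGTGa
core between c and g: cCACGTGg
core between g and c: gCACGTGc
The first and the second are the same double-stranded site with the modified strand exchanged. At the other end of the range stood 3 members that were the lowest on unmodified DNA with CREB1, ATF1 and JUND in that order.
core followed by ag: CACGTGag
core followed by cc: CACGTGcc
core preceded by cc: ccCACGTG

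The score was the authors' z-score, which had a median near 0 on each array. How it was made is not stated, and it was treated as linear, which every difference between changes below assumes. A z-score of 4 or more was used as a mark of clear signal. The 48 members drew on the same 296 probes, each of which held the core 1 time, with 13 to 23 probes behind a member (median 17). Members are therefore not independent of each other. Of these 296 probes, 22 also held TGACG, the CRE half-site, on either strand. The highest member is touched most, because CACGTGac followed by g spells TGACG across its end, and 6 of its 16 probes held TGACG. No more than 1 of the 296 probes was saturated on any array.

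The array labelled JUND 5hmC replicate 2 stood apart from its partner before any comparison was made. Over the 48 members, the z-scores of these 2 arrays had a Pearson correlation of 0.0357, against 0.453 to 0.956 for the other 8 pairs of arrays. Its probes were also the dimmest, with a median signal above background of 193, against 522 to 7414 on the other 17 arrays. On it, 25 of the 48 members had a z-score of 4 or more, against 2 on JUND 5hmC replicate 1, and the share of all 8-mers at that level was 1.26% against 0.564%. It was left out of the fit, JUND 5hmC was represented by replicate 1 alone, whose spread was taken to be that of the other groups, and its values are given apart.

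On unmodified DNA, CREB1 gave clear signal on most E-box members. The median z-score of the 48 was 6.04 on replicate 1 and 8.58 on replicate 2, at the 97.5th percentile of all 8-mers on either array. A z-score of 4 or more was reached by 36 members on replicate 1 and by 46 on replicate 2, where 4.25% and 5.99% of all 8-mers reached it. All 48 were above 0 on both arrays, with the lowest at 1.63 and 2.26, for CACGTGag.

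These levels lay far below those of 8-mers with the longer CRE half-site TGACGT, on either strand, and far above those of E-boxes with another centre. The 95 8-mers with TGACGT had median z-scores of 64.9 and 78.2 on the 2 CREB1 C arrays. The 1135 other 8-mers with ACGT but no E-box core and no TGACGT had medians of 5.28 and 7.17, close to the E-box members. The 719 8-mers with the general E-box form CANNTG and a centre other than CG had medians of 0.0894 and 0.279. Among the 16 possible centres of CANNTG, CG had the highest mean z-score on both CREB1 C and both ATF1 C arrays. No E-box member was among the 100 highest 8-mers of the CREB1 C arrays, and 8 were among the 1000 highest on each.

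The member CACGTGac was the highest on both CREB1 C arrays, with z-scores of 36.9 and 42.1. Its reverse complement gtCACGTG followed with 22.9 and 22.4. By the mean of both arrays gaCACGTG was the third, with 15.5 and 18.8, while on replicate 2 alone taCACGTG lay just above it, with 12.9 and 18.9. The value of CACGTGac was lower when only probes without a CRE half-site were read. The median signal of its probes was 12.7 and 11.3 times the array's median on the 2 arrays, and 5.91 and 6.58 times over its 10 probes without TGACG. For gtCACGTG the same signal was 8.21 and 6.47 times the array's median, and 6.33 and 6.01 times over the 13 probes without TGACG. None of the 20 probes of gaCACGTG held TGACG, and their median signal was 4.28 and 4.35 times the array's median.

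The 4 members that are their own reverse complement were spread over the range on unmodified DNA. With CREB1 C, aCACGTGt had z-scores of 11.1 and 16.5 and tCACGTGa 13.0 and 14.5. The members with G and C as neighbours were lower, at 4.63 and 10.5 for cCACGTGg and 4.08 and 7.20 for gCACGTGc. On each of the 2 arrays the members with A and T as neighbours lay above those with G and C.

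With ATF1, a close relative of CREB1, the E-box members were lower. Their median z-scores on unmodified DNA were 3.47 and 3.42, and 19 and 20 members reached 4, where 2.96% and 3.00% of all 8-mers did. The highest were CACGTGac with 15.1 and 14.5, gtCACGTG with 12.0 and 9.68, and taCACGTG with 9.01 and 8.39. The lowest by the mean of both arrays was CACGTGcc, with 1.28 and 0.964. On the 2 JUND C arrays, 1.59% and 0.375% of all 8-mers reached 4. The 8-mers with TGACGT had medians of 5.18 and 1.59 there, against 64.9 and 78.2 on the CREB1 C arrays. JUND gave little signal on the E-box members too, with medians of 1.42 and 0.769 and with 3 and 0 members at 4 or more. Its highest were CACGTGac with 5.70 and 2.93, atCACGTG with 5.86 and 2.02, and tCACGTGa with 4.32 and 3.28. On replicate 2 none of the 3 reached 4, and ccCACGTG was the lowest on both arrays, at -0.355 and -1.99.

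The bases of the core were set against each single substitution, counted from 1 at the 5′ end of CACGTG, with each substitution pooled with its reverse complement. With CREB1 on unmodified DNA, the intact core had a median z-score of 7.11 over its 48 8-mers (the mean of the 2 arrays for each). The change C1T, which gives TACGTG, had a median of 14.4. The change C1G had a median of 5.83 and a mean of 17.0, and its 8-mers include some with TGACGT. The change C1A had a median of 3.47, and all of these keep the central ACGT. The changes within ACGT had lower medians, of 3.01 for A2G, 0.858 for A2T, 0.119 for A2C, 0.359 for C3A, -0.124 for C3G and 0.726 for C3T. These are descriptions of levels with no test, and neighbouring 8-mers share probes.

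The CREB1 z-scores of the E-box members, which are scaled within each array, fell with 5mC. Of the 48, 39 were lower on 5mC than on C and 0 were higher, at an adjusted p under 0.05 (limma, Benjamini-Hochberg over all 65121 8-mers), where 6.89% of all 8-mers were lower and 2.73% higher. The median change in z-score was -5.00, against -0.0631 over all tested 8-mers. On the 5mC arrays the members' median z-scores were 1.87 and 2.07, against 6.04 and 8.58 on C. Only 5 and 8 members still reached 4 on 5mC, where 2.53% and 1.96% of all 8-mers did, against 36 and 46 on C. In 45 members both 5mC arrays lay below both C arrays, an arrangement seen in 28.8% of all 8-mers. When the z-scores of all arrays were forced to 1 distribution (quantile normalization), 8 members were lower and 0 higher.

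The largest fall belonged to CACGTGac, which had z-scores of 6.15 and 4.57 on 5mC, against 36.9 and 42.1 on C. The change was -34.1 ± 3.96 (SE, adjusted p = 3.28e-06, limma), and the groups were far apart. On the log2 scale of the probe medians it fell by 2.25 over all its probes and by 1.32 over the probes without TGACG (adjusted p = 0.00208, limma). When the fit held the CREB1 arrays alone, the adjusted p was 0.108. For gtCACGTG the z-scores were 2.85 and 1.43 on 5mC, against 22.9 and 22.4 on C (change -20.5 ± 1.60, SE, adjusted p = 2.68e-08). For gaCACGTG they were 2.48 and 3.99 on 5mC, against 15.5 and 18.8 on C (change -13.9 ± 1.53, SE, adjusted p = 1.79e-06). The groups did not overlap for either member, and without TGACG probes gtCACGTG fell by 2.05 on the log2 scale (adjusted p = 1.94e-06, limma).

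With 5hmC the count of lower members for CREB1 was much the same, while the members ranked higher than with 5mC. Of the 48 members, 40 were lower on 5hmC than on C and 0 higher, where 7.59% of all 8-mers were lower and 1.52% higher (limma). The median change was -4.81, against -0.0616 over all 8-mers, and in 46 members both 5hmC arrays lay below both C arrays, as did 29.3% of all 8-mers. The members' medians on 5hmC were 2.24 and 3.03, and 5 and 14 members reached 4, where 1.72% and 1.80% of all 8-mers did. Their median percentiles were 94.09 and 96.78 on 5hmC and 90.85 and 92.24 on 5mC, against 97.49 and 97.46 on C. The 1000 highest 8-mers held 5 and 12 members on 5hmC and 2 and 4 on 5mC, against 8 on each C array. The SD of all 8-mers was 1.67 and 2.04 on 5hmC and 2.54 and 1.64 on 5mC, against 4.49 and 5.30 on C. The part of this spread in the falls was not tested. The count of 40 became 23 without CREB1 5hmC replicate 1 and 24 without CREB1 C replicate 2. It was 22 with only the CREB1 arrays and 2 after quantile normalization.

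The same 3 members led. The z-scores of CACGTGac were 11.5 and 14.2 on 5hmC, against 36.9 and 42.1 on C (change -26.7 ± 3.96, SE, adjusted p = 7.04e-05). This member kept the highest value among the 48 members on either 5hmC array, and the change turned to 2.24 after quantile normalization (adjusted p = 0.739). Over its 10 probes without TGACG, the signal was 1.93 and 1.99 times the array's median on 5hmC, against 5.91 and 6.58 times on C. For gtCACGTG the z-scores were 3.30 and 4.52 on 5hmC, against 22.9 and 22.4 on C (change -18.7 ± 1.60, SE, adjusted p = 6.63e-08). For gaCACGTG they were 3.92 and 4.36 on 5hmC, against 15.5 and 18.8 on C (change -13.0 ± 1.53, SE, adjusted p = 4.01e-06).

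The palindromic members had changes of the same sign and of different size. The z-scores of aCACGTGt were 2.14 and 2.36 on 5mC and 2.29 and 4.07 on 5hmC, against 11.1 and 16.5 on C, and both changes passed the test (adjusted p = 1.45e-05 and 4.23e-05). Those of tCACGTGa were 3.94 and 3.39 on 5mC and 5.49 and 5.55 on 5hmC, against 13.0 and 14.5 on C (adjusted p = 5.42e-05 and 0.000552). For cCACGTGg they were 1.44 and 0.744 on 5mC and 2.01 and 3.06 on 5hmC, against 4.63 and 10.5 on C (adjusted p = 0.000546 and 0.00621). The exception was gCACGTGc, with 3.51 and 2.75 on 5mC, 1.39 and 2.76 on 5hmC and 4.08 and 7.20 on C. Its fall passed the test with 5hmC (adjusted p = 0.0201) and not with 5mC (adjusted p = 0.121). The difference between 5hmC and 5mC itself did not pass (-1.06 ± 0.964, SE, adjusted p = 0.673).

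Between 5hmC and 5mC, 0 of the 48 members were called for CREB1 by limma, where 1.41% of all 8-mers were, and 2 members had an unadjusted p under 0.05. The median difference was 0.651 over the members, against -0.0261 over all 8-mers. The smallest p belonged to CACGTGct, with 4.31 and 4.40 on 5hmC, against 1.83 and 2.37 on 5mC (difference 2.25 ± 0.823, SE, adjusted p = 0.200). The 5hmC arrays lay above the 5mC arrays here without overlap, as in 19 members (22.7% of all 8-mers), and lay below them in 5 (23.7% of all 8-mers). For CACGTGac the difference was 7.49 ± 3.96 (SE, adjusted p = 0.406).

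With CREB1 and 5mC, the members not called were counted by the neighbours of the core. Of the 8 members with C just after the core, 4 were lower and 4 were not called, and of the 8 with G just before it, 4 were lower and 4 were not called. Of the 8 with G just after it, all 8 were lower, and of the 8 with C just before it, all 8 were lower. With A or T as the neighbour, 7 of 8 (A before), 7 of 8 (A after), 7 of 8 (T before) and 6 of 8 (T after) were lower. Of all 8-mers, 6.89% were lower. Members with C after the core are the reverse complements of those with G before it, and likewise for the other bases. Such sets are the same double-stranded sites with the other strand modified, and not separate observations. With 5hmC, 5 of 8 (C after), 6 of 8 (G before), 8 of 8 (G after) and 8 of 8 (C before) were lower, where 7.59% of all 8-mers were. The sets also differed in level on C. Members with G before the core had mean z-scores of 4.65 and 5.99 on C. Those with C, A and T before it had 6.11 and 8.73, 8.55 and 12, and 9.51 and 12.4. The part of these levels in the counts was not tested. The mean z-score of members with C after the core was 3.27 and 2.91 on 5mC, against 5.27 and 6.96 on C. That of members with G after the core was 1.29 and 0.995 on 5mC, against 4.73 and 7.82 on C. On unmodified DNA the 2 sets thus overlapped, and on 5mC the set with C lay above the set with G on both arrays. No test was run on this split, and the members of a set share probes.

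The member gCACGTGt had a change near 0, with z-scores of 3.74 and 4.03 on 5mC, against 2.65 and 4.17 on C (change 0.470 ± 0.873, SE, adjusted p = 0.837). It was the 1 member of 48 whose change was above 0. For CACGTGcc the values were 3.34 and 5.28 on 5mC, against 3.43 and 6.01 on C (adjusted p = 0.877). It was the highest member on CREB1 5mC replicate 2, although it ranked among the lower members on C. The groups overlapped for both. With ATF1, the members with C after the core averaged 1.68 and 1.62 on 5mC, against 3.48 and 2.83 on C, and those with G after the core averaged 0.230 and 0.210 on 5mC, against 3.40 and 2.67 on C.

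Since the core is its own reverse complement, the 2 members of a pair are 1 double-stranded site, with 1 or the other of its strands modified. In the 22 pairs the change with 5mC was compared between the strands for CREB1, and 6 differed (limma, adjusted over all 32225 pairs), where 5.68% of all pairs did. With 5hmC 5 differed, where 4.89% did. The largest was the pair of gtCACGTG and CACGTGac, whose 5mC changes were -20.5 and -34.1 (difference 13.7 ± 1.28, SE, adjusted p = 6.00e-06). Next was gaCACGTG against CACGTGtc, with changes of -13.9 and -2.58 (difference -11.3 ± 0.808, SE, adjusted p = 4.08e-07). The third was atCACGTG against CACGTGat, with changes of -13.5 and -6.33 (difference -7.20 ± 1.31, SE, adjusted p = 0.00274).

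In each of these pairs the strands already differed on unmodified DNA, where both strands carry plain cytosine. Mean z-scores on C were 22.6 for gtCACGTG against 39.5 for CACGTGac, 17.1 for gaCACGTG against 6.42 for CACGTGtc, and 15.8 for atCACGTG against 9.95 for CACGTGat. On 5mC they were 2.14 against 5.36, 3.24 against 3.84, and 2.23 against 3.62. In these 3 pairs the member that was higher on C had the larger fall in z-score. The strand difference in z-score was smaller on 5mC than on C. These 3 pairs were picked for the largest differences of changes, so this pattern is no separate evidence about the strands. With 5hmC the called pairs included gaCACGTG (difference of changes -9.54 ± 0.808, SE, adjusted p = 2.09e-06), gtCACGTG (7.93 ± 1.28, SE, adjusted p = 0.00120) and ctCACGTG against CACGTGag (-5.04 ± 0.982, SE, adjusted p = 0.00541). The pair of ctCACGTG had means of 7.16 against 1.94 on C and 1.99 against 1.81 on 5hmC. The 5hmC count of 5 became 3 without CREB1 5hmC replicate 1 or without CREB1 C replicate 2. On the log2 scale of the probe medians, 3 pairs were called with 5mC and 1 with 5hmC. On that scale gtCACGTG and CACGTGac changed by -2.10 and -2.25 with 5mC, and by -2.05 and -1.32 over probes without TGACG. With 5hmC they changed by -1.94 and -1.67, and by -1.86 and -1.73 without TGACG. The larger fall of CACGTGac was thus not kept on the log2 scale with 5hmC, nor with 5mC without TGACG probes.

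In ATF1 the same 22 pairs gave 0 called with 5mC and 0 with 5hmC by limma, where 2.55% and 0.273% of all pairs were called. The pairs with the largest differences of 5mC changes were atCACGTG against CACGTGat (-4.21, unadjusted p = 0.00571, adjusted p = 0.102), aCACGTGg against cCACGTGt (-3.21, adjusted p = 0.0842) and ggCACGTG against CACGTGcc (-3.08, adjusted p = 0.112). With 5hmC they were atCACGTG (-3.14, adjusted p = 0.415), gCACGTGa against tCACGTGc (2.74, adjusted p = 0.476) and aCACGTGc against gCACGTGt (-2.49, adjusted p = 0.371). When the fit held the ATF1 arrays alone, 5 pairs were called with 5mC.

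The ATF1 z-scores of some E-box members were also lower on modified DNA. With 5mC, 10 members were lower and 0 higher, where 2.71% of all 8-mers were lower and 1.65% higher (limma), and with 5hmC, 8 were lower and 0 higher, where 2.59% were lower and 0.220% higher. The median changes were -2.39 and -2.55, against -0.0250 and -0.0274 over all 8-mers. Both 5mC arrays lay below both C arrays in 43 members, as in 30.1% of all 8-mers, and both 5hmC arrays did in 44, as in 24.5%. No more than 1 member reached a z-score of 4 on any ATF1 array with modified DNA, where 0.462% to 1.28% of all 8-mers did, against 19 and 20 on C. An unadjusted p under 0.05 was seen in 28 members with 5mC and 33 with 5hmC.

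These counts changed with the arrays in the fit, the scale and the probes used. When the fit held the ATF1 arrays alone they were 26 and 25, and on the log2 scale of the probe medians 22 and 23, or 16 and 15 from probes without TGACG. Leaving out any 1 of the 4 arrays of a comparison gave 2 or 3 with 5mC (3 without ATF1 C replicate 1, 2 without ATF1 C replicate 2, ATF1 5mC replicate 1 or ATF1 5mC replicate 2). With 5hmC it gave 0 (without ATF1 C replicate 1 or ATF1 5hmC replicate 1) or 1 (without ATF1 C replicate 2 or ATF1 5hmC replicate 2).

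The largest fall called in ATF1 was that of gtCACGTG, with z-scores of -0.106 and 0.0226 on 5mC and 2.20 and 1.42 on 5hmC, against 12.0 and 9.68 on C. The changes were -10.9 ± 1.60 (SE, adjusted p = 0.00139) and -9.04 ± 1.60 (SE, adjusted p = 0.00418), and on 5mC the z-scores were near 0. For taCACGTG the z-scores were 2.21 and 1.5 on 5mC and 1.71 and 2.10 on 5hmC, against 9.01 and 8.39 on C (adjusted p = 0.0225 and 0.0280). The third was atCACGTG with 5mC, at 0.888 and 1.24, against 6.59 and 9.12 on C (adjusted p = 0.0321). With 5hmC it was gaCACGTG, at 1.60 and 1.20, against 7.97 and 7.13 on C (adjusted p = 0.0322). Of 12 alternatives, gtCACGTG kept its call in 12 with 5mC and in 9 with 5hmC. The calls of the others were less stable, with taCACGTG losing it in 5 with 5mC and 5 with 5hmC, atCACGTG in 5 and gaCACGTG in 6. Among these were the 4 that left out 1 array of the comparison, under which taCACGTG had an adjusted p of 0.113 to 0.202 with 5mC and 0.110 to 0.173 with 5hmC, atCACGTG 0.0888 to 0.250 and gaCACGTG 0.138 to 0.199.

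The highest member, CACGTGac, was not called in ATF1. Its z-scores were 2.96 and 2.63 on 5mC and 4.16 and 3.85 on 5hmC, against 15.1 and 14.5 on C. The changes were -12.0 ± 3.96 (SE, adjusted p = 0.0890) and -10.8 ± 3.96 (SE, adjusted p = 0.163), larger than those of the called members. The groups did not overlap. The SE was larger too, but it came from a single variance per member, pooled over all arrays of the fit. Between replicates, the SD of CACGTGac was 0.392, 0.237 and 0.214 with ATF1 (C, 5mC and 5hmC). With CREB1 it was 3.64, 1.115 and 1.89 in the same order, and with JUND 1.96 on C and 0.761 on 5mC. On the log2 scale the ATF1 changes of this member were -1.47 and -1.30 (adjusted p = 0.00268 and 0.00729), and without TGACG probes -0.85 and -0.81 (adjusted p = 0.0648 and 0.109).

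Between 5hmC and 5mC, 0 members were called for ATF1 by limma, where 1.70% of all 8-mers were, and 2 had an unadjusted p under 0.05. The smallest p was that of CACGTGgg (difference 1.68 ± 0.730, SE, adjusted p = 0.218). The medians of the members were 1.29 and 0.825 on the 5hmC arrays, against 1.00 and 1.27 on the 5mC arrays, so that the groups overlapped. Both 5hmC arrays lay above both 5mC arrays in 14 members (24.6% of all 8-mers) and below them in 14 (27.3%).

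For JUND, 0 members were called by limma between 5mC and C, where 2.59% of all 8-mers were, and 3 had an unadjusted p under 0.05. The smallest p belonged to aCACGTGg, with -0.865 and -0.708 on 5mC, against 1.08 and 2.47 on C (change -2.56 ± 0.788, SE, adjusted p = 0.0815). The median change over the 48 was -0.486, against 0.0396 over all 8-mers. Both 5mC arrays lay below both C arrays in 17 members (22.2% of all 8-mers) and above them in 2 (25.3%). The comparison of 5hmC replicate 1 with C called 0 members, where 0.0829% of all 8-mers were called, and 0 had an unadjusted p under 0.05. The smallest p was that of cCACGTGa (-1.69 ± 1.31, SE, adjusted p = 0.854). Between 5hmC replicate 1 and 5mC, 0 were called, where 1.77% of all 8-mers were, 0 had an unadjusted p under 0.05, and the smallest p was that of CACGTGcg (1.74 ± 0.942, SE, adjusted p = 0.345).

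The proteins were then set against each other. On unmodified DNA, CREB1 was higher than JUND on 46 members and lower on 0, where 9.73% of all 8-mers were higher and 2.15% lower (limma), and all 48 had both CREB1 arrays above both JUND arrays, as did 30.0% of all 8-mers. After quantile normalization 16 were higher. CREB1 was higher than ATF1 on 22 members and lower on 0, where 2.16% were higher and 0.0200% lower, and 45 had both CREB1 arrays above both ATF1 arrays, as did 24.0%. The median differences were 5.99 from JUND and 3.50 from ATF1. Leaving out 1 array turned the count of 22 into 38 (CREB1 C replicate 1), 7 (CREB1 C replicate 2), 6 (ATF1 C replicate 1) or 10 (ATF1 C replicate 2), and quantile normalization turned it into 0. The z-scores are scaled within each array, so that such differences do not compare amounts of bound protein. Nor are they adjusted for the spread of all 8-mers. Its SD was 4.49 and 5.30 on CREB1 C, 2.76 and 2.56 on ATF1 C, and 2.83 and 1.40 on JUND C. The members' median percentile was 97.5 on both CREB1 C arrays, 96.3 and 96.1 on ATF1 C, and 87.6 and 76.9 on JUND C.

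The 3 largest differences from ATF1 were in CACGTGac (24.7 ± 3.96, SE, adjusted p = 0.000786), gtCACGTG (11.8 ± 1.60, SE, adjusted p = 0.000160) and gaCACGTG (9.58 ± 1.53, SE, adjusted p = 0.000785). The same 3 led against JUND, with differences of 35.2, 20.4 and 15.1 and adjusted p of 1.82e-06, 2.06e-08 and 5.32e-07. After quantile normalization the difference from ATF1 for gtCACGTG was -0.184.

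Whether 5mC acted differently with CREB1 than with another protein was tested by the difference of the 2 changes. Against JUND, the change with 5mC was more negative for CREB1 in 24 members and less negative in 0, where 3.16% of all 8-mers were lower and 0.693% higher (limma). The largest differences were -30.9 ± 5.60 for CACGTGac (SE, adjusted p = 0.00188), -17.9 ± 2.27 for gtCACGTG (SE, adjusted p = 5.48e-05) and -13.8 ± 2.17 for gaCACGTG (SE, adjusted p = 0.000498). The median change over the 48 was -5.00 for CREB1 and -0.486 for JUND, whose medians on C were only 1.42 and 0.769. A smaller effect of 5mC and a lower level on C therefore cannot be told apart in this difference. Leaving out JUND 5mC replicate 1 or JUND 5mC replicate 2 turned the count of 24 into 12, leaving out JUND C replicate 2 or CREB1 5mC replicate 1 turned it into 14, and quantile normalization turned it into 0.

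Against ATF1, 0 members were called for the difference of the 5mC changes and 0 for that of the 5hmC changes by limma, where 0.307% and 0.215% of all 8-mers were called. An unadjusted p under 0.05 was seen in 23 and 17 members. The smallest p for 5mC was that of CACGTGtg, whose change was -7.98 with CREB1 and -1.17 with ATF1 (difference -6.81 ± 1.57, SE, adjusted p = 0.0708). For 5hmC it was gtCACGTG, with -18.7 in CREB1 and -9.04 in ATF1 (difference -9.69 ± 2.27, SE, adjusted p = 0.0974). Without CREB1 C replicate 1, 16 members were called for 5mC and 12 for 5hmC, and without CREB1 C replicate 2, 2 and 1.

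Lists of 8-mers near the E-box are given for scale. With CREB1 and 5mC, 951 of the 1135 other 8-mers with ACGT were lower (83.8%), close to the 81.3% of E-box members, and so were all 95 8-mers with TGACGT. Of the 719 CANNTG 8-mers with another centre, 28 were lower and 45 higher. With ATF1 and 5mC, 32.1% of the other 8-mers with ACGT were lower, against 20.8% of the E-box members.

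The probe signals behind the z-scores showed the same order. The median signal of the 296 E-box probes, above background and over the array's median, was 1.61 and 1.44 on the CREB1 5mC arrays and 1.62 and 1.42 on the CREB1 5hmC arrays, against 2.72 and 2.90 on the CREB1 C arrays. With ATF1 it was 1.26 and 1.28 on 5mC and 1.26 and 1.17 on 5hmC, against 1.83 and 1.84 on C. With JUND it was 1.16 and 1.11 on 5mC and 1.10 on 5hmC replicate 1, against 1.20 and 1.06 on C. The groups did not overlap with CREB1 and ATF1 and overlapped with JUND. All of these values are relative to the array's own median signal above background. With CREB1 that median was 824.5 and 4019 on 5mC and 522 and 804.5 on 5hmC, against 839.8 and 1540 on C. With ATF1 it was 3584 and 3662 on 5mC and 810 and 875 on 5hmC, against 1771 and 2288 on C. Falls in these values or in the z-scores therefore do not measure amounts of bound protein.

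The 22 probes that also held TGACG were brighter on unmodified DNA. Their median was 14.6 and 15.2 times the array's median with CREB1 C, and the other 274 probes had 2.55 and 2.69. Over those 274 probes the CREB1 medians were 1.55 and 1.37 on 5mC, against 2.55 and 2.69 on C. On the log2 scale, 37 members were lower with 5mC and 40 with 5hmC in CREB1 when the probes with TGACG were left out, and 36 and 41 with all probes (median changes -0.94 and -0.90, and -0.93 and -0.95). Of all 8-mers, 6.34% and 6.91% were lower without the TGACG probes, and 8.41% and 9.17% with all probes.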

How the data were processed

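Binding was measured on 18 protein binding microarrays. The authors deposited, per the file headers, the median signal and background intensity of each of 40330 probes (35 variable bases), on a linear scale. They also deposited a z-score per 8-mer and array, a score whose calculation is, like the scanner and image software, not given in the sources used here. Across 8-mers it had a Spearman rho of 0.957 to 0.975 (lowest and highest array) with the median signal of the probes that carry the 8-mer on their synthesized strand, and of -0.0808 to 0.509 for the printed strand, so members are read on the modified strand.

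Groups came from the titles. Of the 65530 8-mers, 409 with no probe were left out, and 6 empty cells stayed missing, none in a member. The z-scores of 65121 8-mers on 17 arrays were fitted with limma 3.58.1 in R 4.3.3, with 1 mean for each of 9 groups (8 residual and 12.8 prior degrees of freedom), eBayes with a trend, and a Benjamini-Hochberg threshold of 0.05 over all 8-mers (two-sided). The JUND 5hmC group had 1 array. For reverse-complement pairs, the difference between strands was fitted the same way over 32225 pairs. Probe signal was the intensity minus its background, over the array's median. The log2 values were taken of its median per 8-mer, floored at 0.1. Saturation meant a signal within the top of the 16-bit scale, from 98% of its limit. The precision is limited by the number of arrays. The script was tested on simulated data.

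The members, the lists and the rule for named 8-mers (the palindromic members, the 3 highest and the lowest per protein on C, and the 3 largest called changes or the smallest p per comparison) were chosen with earlier results of these data known. The member gCACGTGt and the 4 members highest on JUND 5hmC replicate 2 were named after their values were seen. Alternatives were other sets of arrays, a replicate block, no trend, quantile normalization, log2 probe medians with and without TGACG, strands averaged, and each array left out. Other steps used Python 3.11.15, with pandas 2.3.3, numpy 2.4.6 and scipy 1.17.1.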

Additional observations from a re-analysis of the deposited data

Results flagged for a closer look

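The effect of 5mC differed between CREB1 and JUND by a test of the difference itself in 24 E-box members. Among these were CACGTGac with -30.9, gtCACGTG with -17.9 and gaCACGTG with -13.8 (difference of the 2 changes in z-score). On unmodified DNA, JUND had z-scores of 5.70 and 2.93, 3.50 and 0.937, and 3.41 and 0.753 on these 3. Over the 48 members the median change with 5mC was -5.00 for CREB1 and -0.486 for JUND. A smaller effect of 5mC on JUND and a lower level of JUND on C cannot be told apart in this difference.

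On the array labelled JUND 5hmC replicate 2, which was outside the fit, 25 members had a z-score of 4 or more. The highest were aaCACGTG at 21.7, gaCACGTG at 20.6, aCACGTGg at 20.3 and aCACGTGt at 19.5, against 0.827, 2.54, 0.901 and 0.994 on replicate 1. The median signal of their probes was 10.7, 9.92, 10.6 and 10.0 times the array's median, against 1.08, 1.22, 1.08 and 1.09 times on replicate 1. Of the 3 members highest with CREB1 on C, gaCACGTG was thus high here too, while CACGTGac had 1.85 and gtCACGTG 4.50. The cause was not tested. This array was put in place of replicate 1 only after these values were seen, so the higher calls restate them. JUND 5hmC was then again 1 array, with its spread taken to be that of the other groups. With this array in place of replicate 1, 21 members were higher than on C and 21 higher than on 5mC (limma), where 2.96% and 4.19% of all 8-mers were higher.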

How the results depend on the processing

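The main fit did not pair arrays by replicate number, and the correlation of deviations ran from -0.17 to 0.22 over 7 comparisons. With replicate numbers as a block, the fit called 38 members for CREB1 with 5mC, 38 with 5hmC, 9 for ATF1 with 5mC and 8 with 5hmC. Leaving out 1 array gave 31 to 41 for CREB1 with 5mC, 23 to 41 with 5hmC, 2 to 3 for ATF1 with 5mC and 0 to 1 with 5hmC. For the differences it gave 12 to 34 (CREB1 from JUND, 5mC), 0 to 16 and 0 to 12 (CREB1 from ATF1, 5mC and 5hmC), 6 to 38 (CREB1 from ATF1 on C) and 35 to 46 (from JUND on C), and for strand pairs 4 to 8 (CREB1 5mC) and 3 to 6 (5hmC).

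Quantile normalization gave 8 and 2 members for CREB1 with 5mC and 5hmC, 2 for JUND with 5mC, 2 for JUND 5hmC from 5mC, 0 for the difference of CREB1 from JUND, 0 for CREB1 C from ATF1 C, 16 for CREB1 C from JUND C, and 1 strand pair each for CREB1 with 5mC, CREB1 with 5hmC and ATF1 with 5hmC. It reversed CACGTGac with 5hmC in CREB1 (2.24), gtCACGTG in the difference of 5hmC effects (2.08) and gtCACGTG in CREB1 C from ATF1 C (-0.184). Averaging the strands reversed CACGTGgg in ATF1 5hmC from 5mC (-0.0948), and gave 18 and 17 for ATF1 with 5mC and 5hmC and 37 for CREB1 C from ATF1 C. All 18 arrays gave 4 and 3 for ATF1, 1 for JUND 5hmC from 5mC and 14 for CREB1 from JUND. Only the arrays of the proteins compared gave 22 and 3 pairs for CREB1 with 5hmC, 26 and 5 pairs and 25 for ATF1, and 11 for CREB1 from JUND. Without a trend the counts were 1 for CREB1 5hmC from 5mC, 14 for ATF1 with 5hmC, and 4 and 2 for the differences from ATF1. Log2 probe medians gave 22, 23 and 1 for ATF1 (5mC, 5hmC and between them), and 3, 1 and 2 strand pairs, and without TGACG 16, 15 and 1, 12 for CREB1 C from ATF1 C, and 1, 1 and 3 pairs. JUND 5hmC replicate 2 in place of replicate 1, chosen after the data were seen, gave 21 and 21. The causes were not tested.

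At z-scores of 3 and 6 in place of 4, replicate 1 and replicate 2 counted 13 and 1, and 15 and 0, members for CREB1 5mC, 9 and 1, and 26 and 2, for CREB1 5hmC, 31 and 6, and 28 and 9, for ATF1 C, 9 and 0, and 1 and 0, for JUND C. At 3 the counts were 1 and 3 for ATF1 5mC, 3 and 1 for ATF1 5hmC, and 3 and 1 for JUND 5mC. Without background subtraction the E-box probe signal was 1.34 (CREB1 5mC), 1.28 (CREB1 5hmC), 2.22 (CREB1 C), 1.23 (ATF1 5mC), 1.13 (ATF1 5hmC) and 1.60 (ATF1 C). Precision is limited by 2 arrays per group, and the dimmest array was JUND 5hmC replicate 2. Of the tests on named members, 298 stayed on the same side of the threshold, 44 lost their call, 8 gained 1 and 4 reversed.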

Other observations

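The array labelled JUND 5hmC replicate 2 also differed from the other 17 in which 8-mers it ranked highest. Of its 100 highest 8-mers, 78 held CANNTG and 6 of them were E-box members with CACGTG, while 1.18% of all tested 8-mers hold CANNTG. On each of the other 17 arrays the 100 highest held at most 1. By mean z-score over 48 8-mers each, the centres of CANNTG came in the order TA (18.6), CA (11.8), GA (10.5), GG (9.20), TG (8.89) and CG (6.69). The CG centre was therefore the sixth there, while it was the first on both CREB1 C arrays. On JUND 5hmC replicate 1 and the 2 JUND C arrays TA was also the first, at 1.53, 2.35 and 0.937. There CG was the second, at 1.32, 1.89 and 0.770. On the 2 JUND 5mC arrays AA was the first, and CG was the second and the sixth. The median z-score of the 8-mers with TGACGT on this array was 0.0329, against 0.716 on replicate 1.

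Within the E-box members, the bases before and after the core both went with the level on that array. The mean z-score over 8 members each was 15.0 with A before the core, 8.67 with G, 2.81 with T and 1.69 with C. On replicate 1 the same means were 1.19, 1.54, 1.77 and 0.582. By the base after the core, the means on replicate 2 were 9.71 with G, 7.50 with C, 6.55 with T and 2.01 with A. On replicate 1 they were 1.12, 1.03, 1.10 and 2.00. The absolute difference between the 2 strands of a site had a median of 3.55 over the 22 pairs, against 0.617 on replicate 1, and reached from 0.0685 to 17.7, the last for aCACGTGg and its reverse complement. Of the single changes to the core, C3T had a mean of 10.2 on that array, above the intact core at 6.69, and C3G 4.83, while C1A, C1G and C1T had 0.918, 0.101 and 0.502. On the CREB1 C arrays, C3T had 0.839 and 1.44 and C1T 11.6 and 17.6.

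The position of the core in the probe went with the signal on the CREB1 C arrays. With the variable region cut into 3 equal parts, counted from the primer end, the median signal of the E-box probes was 1.54 and 1.78 times the array's median in the part nearest the primer, 3.35 and 3.44 in the middle and 4.31 and 3.65 in the part farthest from it. The members share these probes in different proportions, and the part of this in the differences between members was not tested.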
